A study of Mus musculus with 36 samples.

Results

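The 9 genes described here are the immediate early transcription factors Fos, Fosb, Jun, Junb, Jund, Egr1, Atf3, Ier2 and Nr4a1, taken by symbol from the 20717 gene symbols of a single-cell survey of the injured mouse heart. All 9 were present in the count tables. Hearts of male C57BL/6 mice aged 8 weeks, with no altered allele in any group, were studied after ischemia-reperfusion (IR), in which the left anterior descending artery was tied for a time and released, after a sham operation, or after myocardial infarction (MI), in which the tie stayed in place. Left ventricular tissue from the infarcted area, or from the matching area of sham hearts, was digested with enzymes in a warm bath, and sorted cells were sequenced in multi-well plates by SORT-seq, which tags each captured mRNA with a unique molecular identifier (UMI). The 36 plates comprised 4 of Sham 1D (1 day after the operation), 8 of Sham 14D (day 14), 9 of IR 1D, 7 of IR 3D (day 3), 3 of IR 14D and 5 of MI 3D. There was no sham group at day 3, and the MI plates carried a surgery label of their own, so that permanent ligation and anything else particular to those plates cannot be told apart. Every p-value compares plates and not mice, because plates outnumbered the mice of a condition and the labels do not tie a plate to a mouse. The spread between plates may therefore be partly technical.

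Immediate early genes are switched on within minutes of a stimulus, because the proteins that activate them are already present in the resting cell and need only be phosphorylated. Fos and Fosb encode leucine zipper proteins that bind DNA only with a partner of the Jun family (Jun, Junb and Jund), and the pairs form the transcription factor AP-1. Atf3 is a stress-induced leucine zipper protein of the ATF/CREB family, Egr1 a zinc finger factor, Nr4a1 an orphan nuclear receptor and Ier2 a small nuclear protein induced by growth factors. In the heart these genes respond to ischemia, stretch and adrenergic stimulation. They also respond to warm enzymatic digestion of tissue, which every cell in these data went through, so that RNA made in the animal and RNA made during digestion cannot be told apart in any value given below.

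The stretch in front of the transcription start is where signal-activated factors bind, so the 250 bases before the RefSeq start (assembly GRCm38.p6) were read for the members. A window was found for 7 of the 9 members, Egr1 and Ier2 being the ones without. The half-site TGACG of the cyclic AMP response element, searched on both strands, was present in 5 of the 7 windows (Fos, Fosb, Junb, Atf3 and Nr4a1) and in 17.8% of all 32851 windows. The Nr4a1 window held 4 copies and the Fos window 2, while the Jun and Jund windows held none. The full element TGACGTCA, which holds the half-site on both strands, and the AP-1 site TGACTCA, which contains neither orientation of the half-site, were in none of the 7 windows and in 1.55% and 4.46% of all windows. The serum response element core was likewise in none of the 7 and in 1.47% of all, the ETS site CCGGAAG in none and in 6.91%, the Egr site GCGGGGGCG in the Fosb and Nr4a1 windows and in 2.57%, and the TATA box TATAAA in the Fos window and in 12.4%. These are matches of letters within a short window and not observed binding sites. The 4 windows that follow include those of the gene with the largest level in most cell classes (Fos) and the gene called in the most comparisons between groups (Nr4a1). The other 2 are those of Jun family genes that ordered the cell classes differently at IR 1D (Jun and Junb). They are written 5' to 3' on the gene's own strand, with the half-site in capitals.
Fos (chr12:85473640-85473889, plus strand): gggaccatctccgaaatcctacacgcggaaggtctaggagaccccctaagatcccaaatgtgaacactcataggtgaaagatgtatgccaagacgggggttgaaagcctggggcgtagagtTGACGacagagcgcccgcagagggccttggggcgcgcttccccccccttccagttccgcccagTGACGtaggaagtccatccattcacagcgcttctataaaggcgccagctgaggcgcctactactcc
Jun (chr4:95052223-95052472, minus strand): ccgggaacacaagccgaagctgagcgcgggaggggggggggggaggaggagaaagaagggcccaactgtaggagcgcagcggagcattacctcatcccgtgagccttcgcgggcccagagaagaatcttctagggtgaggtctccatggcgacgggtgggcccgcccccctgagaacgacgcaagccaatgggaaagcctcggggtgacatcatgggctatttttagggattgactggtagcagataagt
Junb (chr8:84978749-84978998, minus strand): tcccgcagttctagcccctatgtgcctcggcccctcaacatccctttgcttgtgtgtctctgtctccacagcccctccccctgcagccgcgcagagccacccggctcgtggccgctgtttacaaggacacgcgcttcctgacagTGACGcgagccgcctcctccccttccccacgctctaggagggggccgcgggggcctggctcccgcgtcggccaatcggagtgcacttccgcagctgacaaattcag
Nr4a1 (chr15:101266596-101266845, plus strand): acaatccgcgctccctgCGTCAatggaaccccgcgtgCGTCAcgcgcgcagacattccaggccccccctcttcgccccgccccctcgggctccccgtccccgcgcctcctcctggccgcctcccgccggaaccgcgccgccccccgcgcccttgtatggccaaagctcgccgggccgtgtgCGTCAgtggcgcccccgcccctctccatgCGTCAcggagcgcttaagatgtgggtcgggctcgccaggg
In GENCODE vM21 (GRCm38), Fos lies at chr12:85473890-85477273 on the plus strand, Jun at chr4:95049034-95052222 and Junb at chr8:84974484-84978718, both on the minus strand. Nr4a1 lies at chr15:101254269-101274795 on the plus strand, so that the RefSeq window shown falls inside that gene model, before one of its later starts. The Jund window ends before the start of its GENCODE model (chr8:70698949-70700616, plus strand) and not at it, and so stands in front of an earlier RefSeq start, while the Atf3 window falls inside its GENCODE model.

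Total UMIs per plate ranged from 176614 to 5551870. Wells of at least 1000 UMIs numbered 3146, in 35 of the 36 plates. They were grouped into 18 clusters without the 9 members and without 37 other immediate early genes, and clusters were named from marker genes: 1152 cells were cardiomyocyte-like, 627 macrophage-like, 409 endothelial-like, 336 fibroblast-like and 156 neutrophil-like, and 433 stayed unnamed. In cardiomyocyte-like cells the defining marker Myh6 had a median of 13938 CPM (UMIs of a gene per 1000000 UMIs) over 22 plates. Levels below are CPM of the pooled cells of one class on one plate, for plates with at least 5 such cells, with the mean and SD over plates. Each molecule is counted once whatever its length, so levels can be compared between genes. The tables of Sham 14D replicates 2 and 7 held the same plate and were counted as 1 replicate, and 122 wells were copies of wells of another table. Leaving the copies out changed no call of a member.

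Within one group, the summed level of the immediate early factors differed widely between cell classes, lowest in cardiomyocyte-like and highest in neutrophil-like cells, while single members had other orders. At IR 1D, the 9 members together amounted to 14259 ± 2962 CPM in neutrophil-like cells (9 plates), 9467 ± 2865 CPM in macrophage-like cells (9 plates), 5744 ± 3159.97 CPM in endothelial-like cells (8 plates), 4603 ± 1392 CPM in fibroblast-like cells (5 plates) and 978 ± 98.9 CPM in cardiomyocyte-like cells (3 plates). Neighbouring classes in this order overlapped, with the exception of the cardiomyocyte-like cells, whose plates all lay below the fibroblast-like plates. At MI 3D the neutrophil-like plates also stood apart, at 10090.4 to 13500.2 CPM, from the macrophage-like plates at 4928 to 5558 CPM. The low level of cardiomyocyte-like cells was seen in the sham groups as well, with 239.95 ± 57.7 CPM at Sham 1D (4 plates) and 329 ± 241 CPM at Sham 14D (5 plates).

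**Figure D1:**
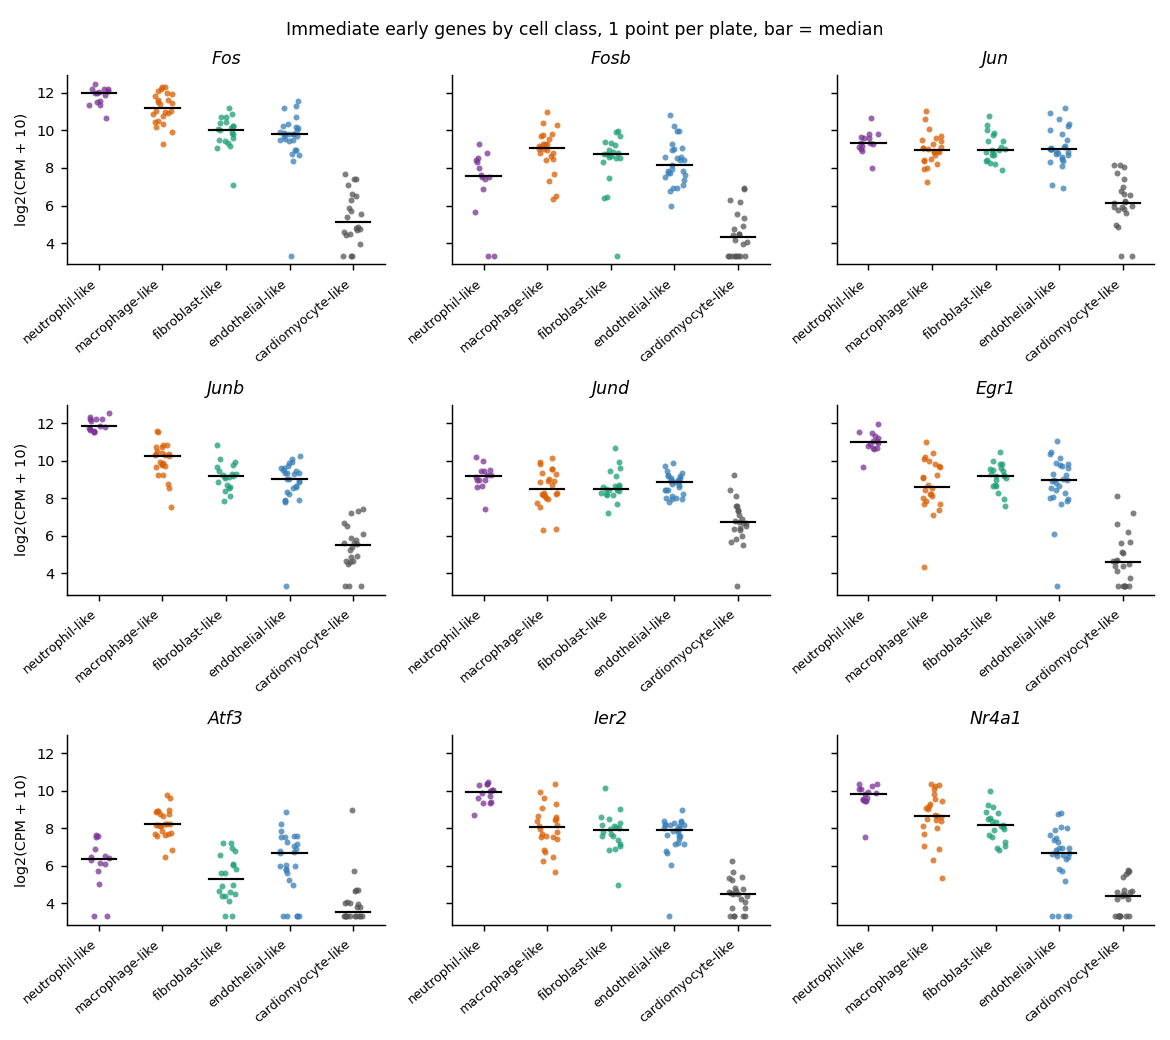
Level of each of the 9 members in 5 cell classes, drawn as log2(CPM + 10) on the vertical axis. Each point is one plate of any group and each bar the median of its class. The cardiomyocyte-like median lies lowest for Fos, Junb and Egr1, and the neutrophil-like median lies highest for Junb, Egr1 and Ier2, while single plates of neighbouring classes overlap.

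Fos, which needs a Jun protein to bind DNA, was the most abundant member in macrophage-like cells, with 3482 ± 929 CPM at IR 1D over a range of 2066 to 5039 CPM. Neutrophil-like cells reached 3947 ± 1209.9 CPM, endothelial-like cells 1309 ± 927 CPM and fibroblast-like cells 1214 ± 496 CPM. The gap between macrophage-like and endothelial-like cells exceeded the sum of their SDs, and that between neutrophil-like and macrophage-like cells did not. Junb, an AP-1 subunit that often restrains Jun, kept the same order of classes, but its 4374 ± 905 CPM in neutrophil-like cells, with plates from 3126 to 5857 CPM, stood apart from the 1633 ± 594 CPM of macrophage-like cells. Junb exceeded Fos on 7 of 9 neutrophil-like plates at IR 1D and on 2 of 5 at MI 3D. In macrophage-like cells Junb exceeded Fos on 0 of 24 plates, and the median ratio of Junb to Fos at IR 1D was 0.459 against 1.06 in neutrophil-like cells.

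The other members split by class as well. Egr1 reached 2509 ± 672 CPM in neutrophil-like cells at IR 1D, against 858 ± 521 CPM in macrophage-like, 694 ± 484 CPM in endothelial-like and 609.9 ± 265 CPM in fibroblast-like cells, of which the last 3 overlapped. Ier2 and Nr4a1 were likewise highest in neutrophil-like cells, at 972 ± 328 CPM and 839 ± 323 CPM, and for all 3 genes the macrophage-like plates overlapped the neutrophil-like ones, with Ier2 and Nr4a1 at 446 ± 330.5 CPM and 797 ± 346 CPM. The pattern of Jun, the founding AP-1 subunit, was unlike these. At IR 1D Jun was highest in endothelial-like cells, at 1166 ± 718 CPM, with plates spread from 345 to 2296 CPM. It did not differ beyond the SDs from the 726 ± 390.4 CPM of neutrophil-like cells or the 603 ± 162 CPM of macrophage-like cells. This order was not kept in other groups. At Sham 1D Jun was highest in macrophage-like cells (1400 ± 792 CPM, against 521 ± 138 CPM in endothelial-like cells). At MI 3D it was highest in neutrophil-like cells (680 ± 141 CPM, against 550 ± 285 CPM). Jund, the member of the Jun family that resting cells also express, varied least at IR 1D, from 621 ± 205 CPM in endothelial-like to 147 ± 116 CPM in cardiomyocyte-like cells. At MI 3D the cardiomyocyte-like plates (n = 2) stood second for Jund, at 465 ± 174 CPM. Fosb and Atf3 were highest in macrophage-like cells at IR 1D, at 792 ± 324 CPM and 310.2 ± 152 CPM. In neutrophil-like cells Fosb was 231 ± 201 CPM and Atf3 70.1 ± 51.8 CPM, both with a plate at 0. Atf3 did not follow the order of the sum, since macrophage-like cells stood above neutrophil-like cells. The 3 cardiomyocyte-like plates at IR 1D stood second by their mean, at 180 ± 276 CPM, and overlapped the macrophage-like and endothelial-like plates. That place rests on replicate 1, since the 3 plates, of 6, 5 and 15 cells, held 12, 0 and 2 Atf3 UMIs (498, 0 and 42.5 CPM).

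The make-up of the member UMIs followed the class. Fos contributed a mean of 37.1% of the member UMIs in macrophage-like cells at IR 1D and 37.4% at IR 3D. In neutrophil-like cells Junb contributed 31.0% at IR 1D and 27.5% at MI 3D. Jund made up 39.3% of the member UMIs of cardiomyocyte-like cells at Sham 1D, where Fos made up 7.48%.

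**Figure D2:**
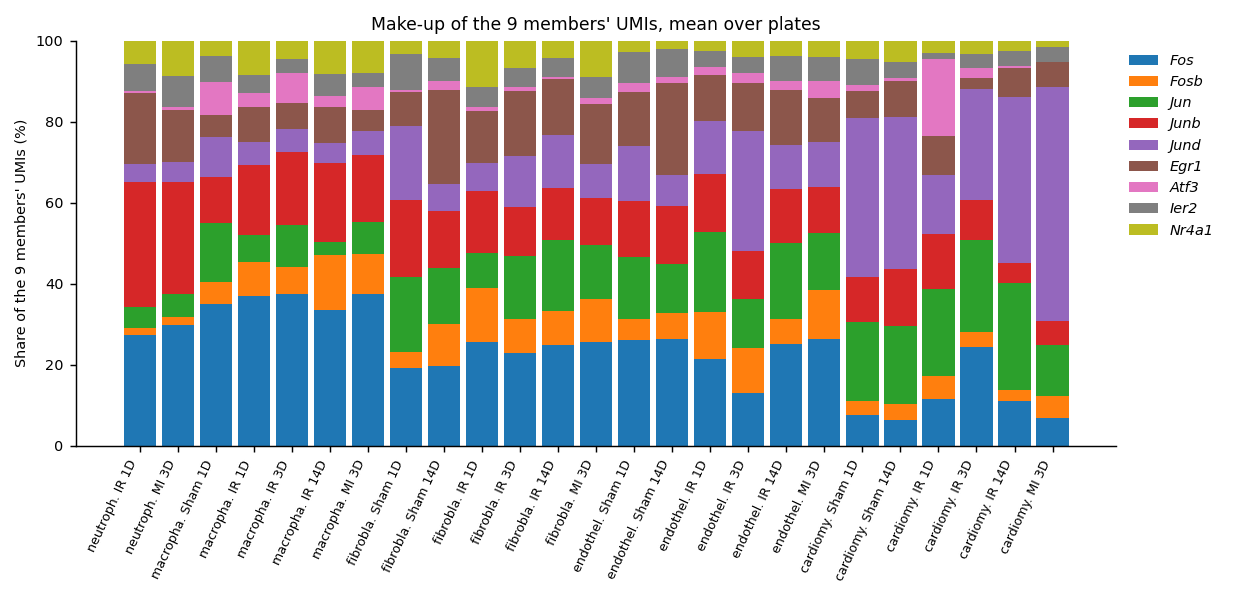
Make-up of the UMIs of the 9 members in each class and group, as the mean percent over plates on the vertical axis, stacked by member. Fos is the largest block in the macrophage-like bars, Fos and Junb are blocks of similar size in the neutrophil-like bars, and Jund is the largest block in the sham cardiomyocyte-like bars.

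These differences were tested on the same plates, so that the 2 classes compared shared operation, digestion, sort and sequencing (edgeR quasi-likelihood test with plate as a block, p-values adjusted over all genes tested by the Benjamini-Hochberg method). Such tests between cell classes call a large share of all genes, and the counts of members are given beside that share. Between endothelial-like and cardiomyocyte-like cells, 7 members passed the filter on low counts and 7 of 7 were higher in endothelial-like cells, against 76.1% of 1865 genes called in either direction and 35.9% called higher. Egr1 differed by a log2 fold change of 3.89 ± 0.29 (SE, edgeR adjusted p = 4.78e-13, 18 plates), Fos by 3.75 ± 0.38 (edgeR adjusted p = 1.63e-10) and Junb by 3.21 ± 0.33 (edgeR adjusted p = 2.89e-10). The smallest differences were those of Jun, 2.02 ± 0.27, and Jund, 1.19 ± 0.22 (edgeR adjusted p = 6.09e-08 and 9.85e-06). Atf3 and Nr4a1 were not tested there, being too low in both classes.

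Macrophage-like cells exceeded endothelial-like cells in 5 of 9 members, against 57.2% of 2162 genes called in either direction and 28% called higher (20 plates). Nr4a1 (1.73 ± 0.31, edgeR adjusted p = 1.35e-05), Atf3 (1.58 ± 0.29, edgeR adjusted p = 2.51e-05) and Fos (1.57 ± 0.24, edgeR adjusted p = 1.89e-06) differed most. Junb (1.12 ± 0.23, edgeR adjusted p = 1.04e-04) and Fosb (0.59 ± 0.24, edgeR adjusted p = 0.0358) were higher too, Fosb in 12 of 20 fits that left out a plate. Jun (-0.23, 95% interval -0.69 to 0.22) and Jund (-0.11, -0.42 to 0.20) did not pass the test. Fibroblast-like cells exceeded endothelial-like cells in 4 of 8 members tested, against 48.4% of 2076 genes called in either direction and 26.8% called higher (19 plates). Of these, Nr4a1 (1.48 ± 0.28, edgeR adjusted p = 5.45e-05) kept its call in 19 of 19 fits without a plate, while the number of members called ranged from 1 to 6 over those fits, with 1 without IR 1D replicate 7, MI 3D replicate 1 or MI 3D replicate 3.

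Neutrophil-like cells were compared with the macrophage-like cells of the same 14 plates in a test added after the data were seen. Of 8 members tested, 7 were higher in neutrophil-like cells and Fosb was lower, against 73% of 705 genes called in either direction, 36.6% higher and 36.5% lower. Egr1 differed by 2.36 ± 0.22, Ier2 by 2.02 ± 0.23 and Junb by 1.97 ± 0.15 (edgeR adjusted p = 2.50e-09, 4.75e-08 and 1.07e-10), and Fosb by -1.23 ± 0.32 (edgeR adjusted p = 0.00138). Fos (0.75 ± 0.18) and Jun (0.74 ± 0.20) were higher as well with the filter on low counts, but without that filter, where the median of all genes moved from -0.08 to -0.42, they became -0.05 and -0.06 and lost their call, and Jun also missed the threshold with relative log expression scaling (0.42). Jund (0.0085) and Nr4a1 (0.071) also lost their call without the filter. Junb, Egr1 and Ier2 stayed higher in neutrophil-like cells, and Fosb lower, with both scalings and without the filter. Of the other immediate early genes, 12 of 14 tested were higher in endothelial-like than cardiomyocyte-like cells, 13 of 23 were higher and 4 lower in macrophage-like than endothelial-like cells, 5 of 22 were higher and 5 lower in fibroblast-like than endothelial-like cells, and 18 of 19 were higher in neutrophil-like than macrophage-like cells. Of the heat shock genes of the response to dissociation, 5 of 5 tested were lower in neutrophil-like than macrophage-like cells, 1 of 9 was higher and 6 lower in endothelial-like than cardiomyocyte-like cells, 0 of 8 were higher and 4 lower in macrophage-like than endothelial-like cells, and 4 of 9 were higher and 1 lower in fibroblast-like than endothelial-like cells.

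Depth differed between classes, with a median of 2087 UMIs per neutrophil-like cell and 12245 per macrophage-like cell. Each cell was therefore also thinned to 1000 UMIs, to compare how many cells held a molecule of a gene. The shares rest on the 3091 cells left after copied wells were set aside, with the plate held in 2 tables counted from 1 of them. After thinning, a cell held a UMI of a mean of 4.48 of the 9 members among neutrophil-like cells, 3.03 among macrophage-like, 2.38 among fibroblast-like, 1.78 among endothelial-like and 0.34 among cardiomyocyte-like cells. These means pool cells of all groups, which the classes hold in unequal numbers. At IR 1D alone they were 4.43, 3.87, 2.82, 2.11 and 0.892 in the same order. The unthinned means over all groups, 5.66, 6.79, 5.73, 3.71 and 0.907 in the same order, placed macrophage-like cells first. Fos was found in 80.0% of neutrophil-like cells (exact 95% interval 72.8% to 86.0%), 68.5% of macrophage-like (64.7% to 72.2%), 43.9% of fibroblast-like, 27.2% of endothelial-like and 4.70% of cardiomyocyte-like cells (3.54% to 6.11%). At IR 1D alone the Fos shares were 80.0% and 80.9% in neutrophil-like and macrophage-like cells, with overlapping intervals (71.1% to 87.2% and 72.3% to 87.8%), and 45.1%, 32.0% and 13.5% in the other 3. Over all groups, Junb was found in 94.2% of neutrophil-like cells and 3.37% of cardiomyocyte-like cells, and no share at or near the cardiomyocyte-like one is read as expression, since free RNA in the suspension can give such a share. Jund varied least in proportion, from 11.4% of cardiomyocyte-like to 40.6% of neutrophil-like cells. Atf3 was found in 22.7% of macrophage-like cells but only 7.74% of neutrophil-like, 4.74% of endothelial-like and 3.03% of fibroblast-like cells. Unthinned, the Fos shares were 89.7%, 89.0%, 73.0%, 45.6% and 12.1% in the order of classes above. These intervals cover counting error only, since cells of one plate are not replicates.

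In macrophage-like cells, 7 of the 9 members were lower 3 days than 1 day post IR. Fos, Fosb, Junb, Jund, Egr1, Ier2 and Nr4a1 passed the test (6 plates against 9), against 26.6% of 5097 genes called in either direction and 12.3% called lower. The largest difference was that of Nr4a1, a nuclear receptor that limits inflammatory gene expression in macrophages. Its levels at IR 1D were 575, 1096, 689, 521, 1292, 1231, 333, 529 and 906 CPM on the 9 plates, and at IR 3D 70.5, 747, 126, 195, 30.8 and 109 CPM on the 6 plates. All but one of the IR 3D plates lay below every IR 1D plate, and the exception, IR 3D replicate 3, lay within their range. The log2 fold change was -2.25 ± 0.39 (SE, edgeR adjusted p = 7.02e-05).

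Fos, the most abundant member of this class, was 2699.9, 2066, 3129.5, 3199, 4326, 5039, 2861, 3938 and 4076 CPM on the IR 1D plates and 1269, 2887, 1152, 952, 606 and 1403 CPM on the IR 3D plates, so that replicate 3 alone reached the IR 1D range. The log2 fold change was -1.39 ± 0.26 (edgeR adjusted p = 1.76e-04). Its partner Junb fell alongside, from 1633 ± 594 CPM (1189 to 3092) to 688 ± 436 CPM (175 to 1426), with a log2 fold change of -1.37 ± 0.31 (edgeR adjusted p = 0.00116). Jund fell from 547 ± 225 CPM to 178 ± 93.0 CPM (-1.43 ± 0.29, edgeR adjusted p = 4.25e-04) and Fosb from 792 ± 324 CPM to 247 ± 166 CPM (-1.49 ± 0.34, edgeR adjusted p = 0.00128). Egr1 and Ier2, whose products are not AP-1 subunits, fell by 1.82 and 1.87 on the log2 scale (edgeR adjusted p = 0.00417 and 0.00174), and on IR 3D replicate 6 Egr1 was down to 10.3 CPM. For all 7 genes the plates of the 2 days overlapped, and all 7 kept their call in 15 of 15 fits without a plate.

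Jun and Atf3 did not pass this test. Jun was 603 ± 162 CPM at IR 1D and 411 ± 332 CPM at IR 3D (-0.77 ± 0.31, edgeR adjusted p = 0.0635), and it passed once IR 3D replicate 3, the plate at 1053 CPM, was left out (edgeR adjusted p = 0.00201), as it did without IR 1D replicate 2 or 7. Atf3, the stress-induced ATF/CREB factor, was 310.2 ± 152 CPM and 228 ± 71.1 CPM, a log2 fold change of -0.34 with a 95% interval from -0.91 to 0.23. After thinning, the share of macrophage-like cells with a Fos UMI went from 80.9% of 110 cells at IR 1D to 52.6% of 194 at IR 3D, that of Nr4a1 from 40.9% to 12.9% and that of Egr1 from 37.3% to 12.9%. The share with an Atf3 UMI was 24.5% and 24.2%. Unthinned, Fos was found in 91.8% and 76.8% and Nr4a1 in 79.1% and 38.1% of the cells. In the fit on thinned counts, 3 of 8 members tested passed.

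**Figure D3:**
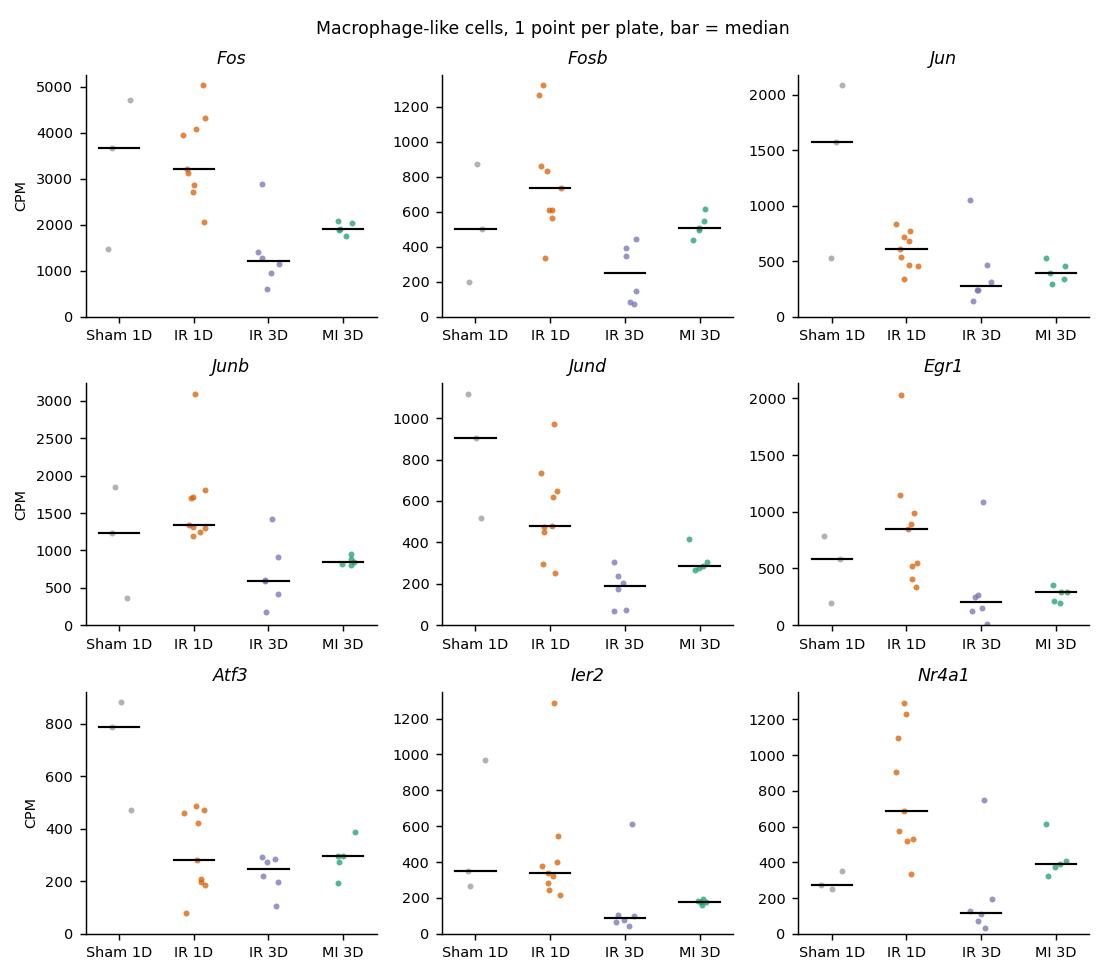
Levels of the 9 members in macrophage-like cells of Sham 1D, IR 1D, IR 3D and MI 3D, in CPM on the vertical axis. Each point is one plate and each bar the median of its group. IR 3D lies lowest for Fos and Nr4a1 apart from one high plate, and for Jun and Atf3 the highest points are in Sham 1D.

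Other immediate early genes were lower too in this comparison, though not all of them passed. Of 30 tested, 18 were lower at IR 3D and 0 higher, against 12.3% of 5097 genes called lower. Their median log2 fold change was -1.08 against 0.05 over all genes, and the list was not tested as a set. Among the largest were Nr4a2 (-3.52), a paralog of Nr4a1, Cebpb (-2.56) and Nfkbia (-2.36), an inhibitor of NF-kappaB. Of 7 other AP-1 and Maf partners, a list that shares Fosl1, Fosl2 and Maff with the previous one, 4 were lower, including Jdp2 (-2.74) and Fosl2 (-2.23). Among 12 upstream kinases and factors, Srf (-1.07) and Crem (-1.20) were lower and the kinase gene Mapk9 higher (1.49). The heat shock genes moved less, with 2 of 12 lower, Hspd1 (-0.69) and Hsp90ab1 (-0.61). The make-up of the class changed between these days: cluster 2, with Saa3 and Ccr2 among its leading genes, held 82 cells at IR 1D and 22 at IR 3D, and cluster 3, led by Gpnmb and Ms4a7, held 9 and 145. Within each cluster the sum of the members, pooled over cells and given with no test, was lower at IR 3D. It was 8882 against 5387 CPM in cluster 2, 5816 against 2892 in cluster 3 and 8893 against 3200.2 in cluster 13, led by Cd209f and Vsig4. The 9 cells of cluster 3 at IR 1D came from 2 plates. Pooling gives most weight to the deepest plates, and IR 3D replicate 4 held 81 of the 194 cells. Neutrophil markers summed to 125 to 2290.4 CPM on the IR 1D plates and 34.0 to 122 at IR 3D, and macrophage markers to 2710.4 to 9969.98 and 12237 to 18682. The part of these markers in the result was not tested.

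In hearts taken 3 days after permanent ligation, Nr4a1 was the member that differed from IR 3D in macrophage-like cells (5 plates against 6, the IR 3D plates being those of the previous comparison). Its levels at MI 3D were 376, 323, 613, 388 and 409 CPM, against 213 ± 267 CPM at IR 3D, a log2 fold change of 1.41 ± 0.41 (edgeR adjusted p = 0.0245). It was 1 of 9 members called, against 9.28% of 5097 genes called in either direction and 4.9% called higher. The call was lost without any one of IR 3D replicates 4, 6 and 7 or MI 3D replicates 3, 4 and 5, and without IR 3D replicate 3 Fos (edgeR adjusted p = 0.0342) and Ier2 (edgeR adjusted p = 0.0281) were called beside it. The member sum was 5190.3 ± 279 CPM at MI 3D and 3825 ± 2543 CPM at IR 3D, where replicate 3 held 8830.3 CPM and the other 5 plates 1489.7 to 3339 CPM. The MI 3D plates held 49 to 67 macrophage-like cells and the IR 3D plates 6 to 81, and the MI 3D cells were deeper, with a median over plates of 23588 against 6041 UMIs per cell. The class lay in different clusters in the 2 groups, with 159 of 278 cells in cluster 2 and 94 in cluster 3 at MI 3D against 22 and 145 of 194 at IR 3D. Pooled over cells and given with no test, Nr4a1 was 570.1 CPM at MI 3D and 361 at IR 3D in cluster 2, 215 and 95.5 in cluster 3, and 194 and 184 in cluster 13. Of 30 other immediate early genes 8 were higher at MI 3D and 0 lower, among them Nr4a2 (2.73), Nfkbia (1.65) and Fosl2 (1.52).

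Macrophage-like cells of sham hearts at day 1 carried the members too, in a comparison with IR 1D added after the data were seen. The sum was 9267 ± 4247 CPM over 3 Sham 1D plates of 7 cells each, and Fos differed by a log2 fold change of 0.04 with a 95% interval from -0.57 to 0.65 (9 plates against 3). Jun and Atf3 were the 2 members called, both lower at IR 1D, against 2.73% of 5097 genes called in either direction and 2.1% called lower. Jun was 534, 1578 and 2087 CPM on the Sham 1D plates and 344 to 834 CPM, with a median of 611, at IR 1D (-1.25 ± 0.34, edgeR adjusted p = 0.0418). Atf3 was 473, 789 and 882 CPM at Sham 1D and 78.3 to 487 CPM at IR 1D (-1.23 ± 0.34, edgeR adjusted p = 0.0452). Of the 3 sham plates, 2 lay above all IR 1D plates for both genes and the third within their range. Over the 12 fits without a plate Jun was called in 1 and Atf3 in 4, and without IR 1D replicate 6, for example, neither was (edgeR adjusted p = 0.0708 and 0.0521). Nr4a1 lay in the other direction without passing the test, at 274, 252 and 353 CPM on the Sham 1D plates against 797 ± 346 CPM at IR 1D (1.40 ± 0.49, edgeR adjusted p = 0.124), and 4 of 9 members had an unadjusted p under 0.05. In Sham 1D 14 of the 21 cells belonged to cluster 13, which held 19 of the IR 1D cells, and the part of this difference in the result was not tested. Pooled over cells and given with no test, both were lower at IR 1D in cluster 13, with Jun at 1809.8 CPM at Sham 1D and 774 at IR 1D and Atf3 at 1031 and 206. In cluster 2, which held 7 of the Sham 1D cells, Jun was 584 and 537 CPM and Atf3 was 250.5 and 357.

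In fibroblast-like cells Jun and Jund were lower and Nr4a1 was higher at IR 1D than at Sham 1D (5 plates against 3), in a comparison also added after the data were seen. These 3 of 9 members were called, against 19.7% of 6674 genes in either direction, 11.4% higher and 8.36% lower. Jun was 910.1, 484 and 1756 CPM on the Sham 1D plates and 449.8, 334, 298, 403 and 282 CPM on the IR 1D plates, with no overlap (-1.37 ± 0.34, edgeR adjusted p = 0.00567). Jund was 768, 576 and 1626 CPM and 197, 289.1, 283, 343 and 406 CPM, again with no overlap (-1.56 ± 0.33, edgeR adjusted p = 0.00199). Nr4a1 moved in the opposite direction, from 114, 105 and 325 CPM to 230.4, 600.5, 450.1, 442 and 993 CPM (1.75 ± 0.46, edgeR adjusted p = 0.00895), where the lowest IR 1D plate lay below the highest sham plate. The median of all genes lay at 0.19 in this comparison. Jun was not called without Sham 1D replicate 4 (edgeR adjusted p = 0.106), and Nr4a1 was not called without Sham 1D replicate 1 or 3. Ier2 was called lower at IR 1D without Sham 1D replicate 3 (-1.61, edgeR adjusted p = 0.0251), against -1.08 with all plates (edgeR adjusted p = 0.128).

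Fos and Egr1 did not pass this test in fibroblast-like cells. Fos was 1182 ± 1007 CPM at Sham 1D and 1214 ± 496 CPM at IR 1D (log2 fold change 0.20, 95% interval -0.71 to 1.11), and Egr1 was 461 ± 262 CPM and 609.9 ± 265 CPM (0.56, -0.24 to 1.36). Fosb was 341 ± 523 CPM and 624 ± 263 CPM, a log2 fold change of 1.15 (edgeR adjusted p = 0.203), and it was called higher at IR 1D once Sham 1D replicate 4 was left out (log2 fold change 3.54, edgeR adjusted p = 0.00213). Of 31 other immediate early genes, 6 were called higher, led by Ctgf (5.11), Nr4a2 (4.33) and Egr2 (4.08). Another 4 were called lower, led by Zfp36l1 (-2.14), Klf2 (-1.96) and Klf4 (-1.76), and the rest did not pass. Of 13 heat shock genes, 5 were higher and 1 lower. Over all 6674 genes 11.4% were called higher and 8.36% lower, and neither list was tested as a set.

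Several other measures moved with the operation in these cells. All 30 Sham 1D cells belonged to cluster 10, whereas at IR 1D 41 cells belonged to cluster 6 and 10 to cluster 10. Within cluster 10, the cluster that both groups share, neither Jun nor Jund was lower at IR 1D: pooled over cells, Jun was 837 CPM at Sham 1D and 1145 at IR 1D, and Jund 817 and 848. The low IR 1D levels were those of cluster 6, with 298 CPM of Jun and 259.9 of Jund. Nr4a1 was 159 CPM at Sham 1D and 268 at IR 1D within cluster 10, and 382 in cluster 6. Heat shock genes summed to 4045 to 5603 CPM at Sham 1D and 9729 to 12084 at IR 1D, the ribosomal RNA gene Rn45s to 96023 to 121842 and 4715 to 60452 CPM, cardiomyocyte markers to 5983 to 19822 and 411 to 932 CPM, and the median UMIs per cell to 3102 to 3763 and 6704 to 16665. The calls of Jun, Jund and Nr4a1 were unchanged with Rn45s left out of the libraries. The part of the other measures was not tested.

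Between MI 3D and IR 3D, Nr4a1 was again the member called in fibroblast-like cells (5 plates against 4), as 1 of 9 members, against 10.7% of 6674 genes in either direction and 4.32% higher. Its levels were 269, 348, 367, 559 and 284 CPM at MI 3D and 142, 192, 174 and 125 CPM at IR 3D, with no overlap, and the log2 fold change was 1.12 ± 0.36 (edgeR adjusted p = 0.0457). It kept this call in 2 of 9 fits without a plate. Fosb (0.77, edgeR adjusted p = 0.369) and Junb (0.59, edgeR adjusted p = 0.236) also had plates that did not overlap, without passing the test. The 31 other immediate early genes, none of which passed, had a median log2 fold change of 0.38 against 0.03 over all genes, and 2 of 13 heat shock genes were higher at MI 3D. At MI 3D 131 cells belonged to cluster 6, whereas at IR 3D 60 belonged to cluster 10, and the median UMIs per cell were 36329.5 to 54983 and 1886 to 5119. Cluster 7, with 4 of 8 fibroblast markers and a median of 1470 UMIs, held 175 of the 721 MI 3D cells. It stayed unnamed, so that these shallower cells were not part of the comparison.

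**Figure D4:**
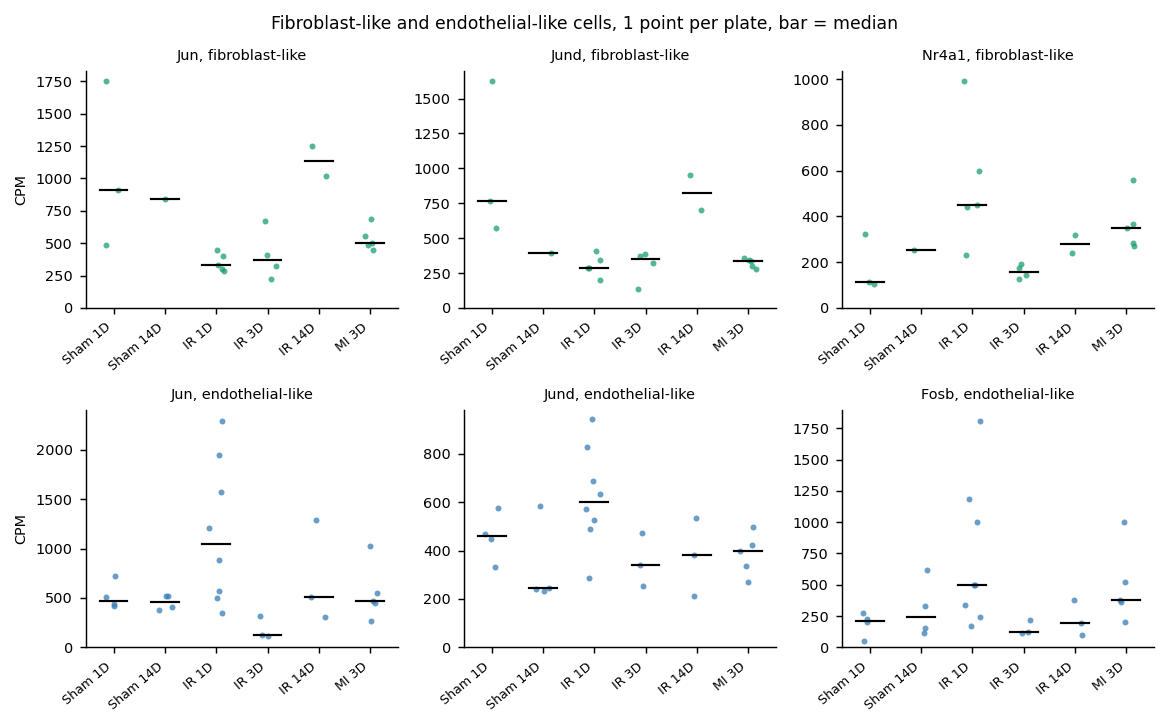
Levels of Jun, Jund and Nr4a1 in fibroblast-like cells and of Jun, Jund and Fosb in endothelial-like cells in the 6 groups, in CPM on the vertical axis. Each point is one plate and each bar the median of its group. In fibroblast-like cells the Sham 1D points of Jun and Jund lie above all IR 1D points, while in endothelial-like cells the IR 1D points spread upward.

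In endothelial-like cells the one member called at IR 1D was Fosb (8 plates against 4), as 1 of 9, against 14.4% of 3461 genes called in either direction and 5.69% called higher. Fosb was 52.0, 277, 223 and 202 CPM on the Sham 1D plates and 496, 240.4, 497, 172, 1189, 336, 1809.6 and 1003 CPM on the IR 1D plates (1.68 ± 0.53, edgeR adjusted p = 0.0261). The upper IR 1D plates lay well above all sham plates and the lower ones among them, and the call was lost without IR 1D replicate 8 or without Sham 1D replicate 1 or 3. Jun was 416, 719, 438 and 509 CPM at Sham 1D and 1574, 504, 883, 345, 1949, 568.04, 2296 and 1211 CPM at IR 1D (0.96 ± 0.41, edgeR adjusted p = 0.114). Fos was 854 ± 94.0 CPM and 1309 ± 927 CPM (0.45, 95% interval -0.45 to 1.36). The SD was larger at IR 1D than at Sham 1D for all 9 members, but the SD of other genes was not compared. There were also fewer cells per plate at IR 1D, with 75 endothelial-like cells and 8 plates kept, against 107 and 4 at Sham 1D. Of 26 other immediate early genes 3 were higher, Maff (2.12), Ctgf (1.91) and Fosl2 (1.87), and 1 was lower, Zfp36l1 (-0.91). Heat shock genes summed to 4534 to 5249.9 CPM at Sham 1D and 5629.6 to 9488 at IR 1D, without overlap. At Sham 1D 80 of 107 cells belonged to cluster 5, 21 to cluster 15 and 6 to cluster 11, and at IR 1D 28 of 75 to cluster 5, 3 to cluster 15 and 44 to cluster 11. Pooled over Sham 1D cells, the sum of the members was 631 CPM in cluster 15 against 3777 in cluster 5. Fosb was 224 CPM at Sham 1D and 699 at IR 1D within cluster 5, and 217 and 592 within cluster 11. The part of the heat shock genes was not tested.

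The response of Jun and Jund to IR at day 1 differed between fibroblast-like and endothelial-like cells in a direct test of the difference, which was added after the data were seen, as was that of macrophage-like against endothelial-like cells. The fold change of fibroblast-like cells minus that of endothelial-like cells was -2.39 ± 0.59 on the log2 scale for Jun (edgeR adjusted p = 0.0272) and -1.83 ± 0.49 for Jund (edgeR adjusted p = 0.0411), so that 2 of 9 members were called against 1.33% of 7358 genes in either direction and 0.639% lower. Jun kept this call in 7 and Jund in 3 of 12 fits without a plate. The fibroblast-like side of this difference sets cluster 10 at Sham 1D against mostly cluster 6 at IR 1D. Within cluster 10 the pooled levels, given with no test, were 837 and 1145 CPM for Jun and 817 and 848 for Jund. For macrophage-like against endothelial-like cells 0 of 9 members were called (edgeR), 1 at an unadjusted p under 0.05, with Jun at -1.89 ± 0.56 (edgeR adjusted p = 0.131), and 0.156% of 7673 genes passed. The other 2 tests of a difference in effect, those of IR at day 14 and of the sham day between endothelial-like and cardiomyocyte-like cells, called 0 of 5458 genes (0%), with 169 and 184 at an unadjusted p under 0.05. All 4 of these tests share sham or IR plates with the comparisons above.

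In cardiomyocyte-like cells the members were so low that 6 of the 9 passed the filter. Fos was higher at IR 3D than in the sham groups together (5 plates against 9; 1.54 ± 0.46, edgeR adjusted p = 0.0263), the 1 member called, against 6.34% of 4228 genes in either direction and 4.23% higher. Its levels at IR 3D were 161, 68.8, 18.5, 82.4 and 86.2 CPM, at Sham 1D 14.2, 5.48, 11.5 and 43.2 CPM and at Sham 14D 47.5, 15.5, 31.5, 0 and 0 CPM. These rest on few molecules, since the plate at 161 CPM and the plate at 18.5 CPM each held 1 Fos UMI, and 59 and 26 UMIs came from 2 plates, replicates 4 and 7, without either of which the call was lost. It was also lost without Sham 14D replicate 8 or Sham 1D replicate 2 or 3. The class lay in different clusters in these groups, since cluster 4, led by Sprr1a, Nmrk2 and Nppa, held 164 of the 282 cells at IR 3D, 4 at Sham 1D and 2 at Sham 14D. Pooled over cells, Fos was 96.2 CPM in cluster 4 at IR 3D. In cluster 0 it was 137 CPM at IR 3D against 7.68 at Sham 1D and 12.5 at Sham 14D, in cluster 1 29.5 against 8.27 and 21.8, and in cluster 12 66.7 against 39.2 and 73.6. Macrophage markers summed to 185 to 1351 CPM in these cells at IR 3D, against 34.6 to 279.99 at Sham 1D, and fibroblast markers to 610.04 to 3400.2 against 149 to 692. Wells of at least 100 and under 500 UMIs, which hold free RNA as well as shallow cells, carried Fos at a pooled 519 CPM at IR 3D. They carried it at 102 CPM at Sham 1D and 180 at Sham 14D. The part of these measures in the Fos result was not tested. At IR 14D against Sham 14D the log2 fold change of Fos was -0.06, with a 95% interval from -1.25 to 1.12.

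The remaining comparisons called 0 of the tested members (edgeR). Endothelial-like cells of MI 3D against both sham groups called none of 9 (0 at an unadjusted p under 0.05, and 0 with DESeq2), although 35.6% of 3461 genes passed, and without MI 3D replicate 5 Egr1 (-1.30, edgeR adjusted p = 0.0414) and Ier2 (-0.81, edgeR adjusted p = 0.0406) were called lower. Without Sham 14D replicate 5, Fosb (1.23, edgeR adjusted p = 0.0447) was called higher. In that comparison 5 of 26 other immediate early genes were higher, including Cebpb (1.91), and 5 lower, including the flow-responsive factors Klf4 (-1.41) and Klf2 (-1.32). This comparison set different clusters against each other, since cluster 11 held 53 of 57 cells at MI 3D but 6 at Sham 1D and 3 at Sham 14D, where most belonged to cluster 5 (80 and 52) and others to cluster 15 (21 and 18). Endothelial-like cells of IR 14D against Sham 14D (3 plates against 4) and of Sham 14D against Sham 1D (4 against 4) called 0 of 3461 genes (0%), with 166 and 258 at an unadjusted p under 0.05, and the cardiomyocyte-like comparisons of the same groups called 0.189% and 0.639% of 4228 genes, with 3 and 1 of 6 members, and 208 and 430 genes, at an unadjusted p under 0.05. The 3 at IR 14D were Jun (-1.04), Junb (-1.33) and Egr1 (-1.41), all below 0 on the log2 scale without passing the adjusted test, and the median of the 6 was -1.19 against 0.04 over all genes. DESeq2 called 0 members in these 4 comparisons.

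**Figure D5:**
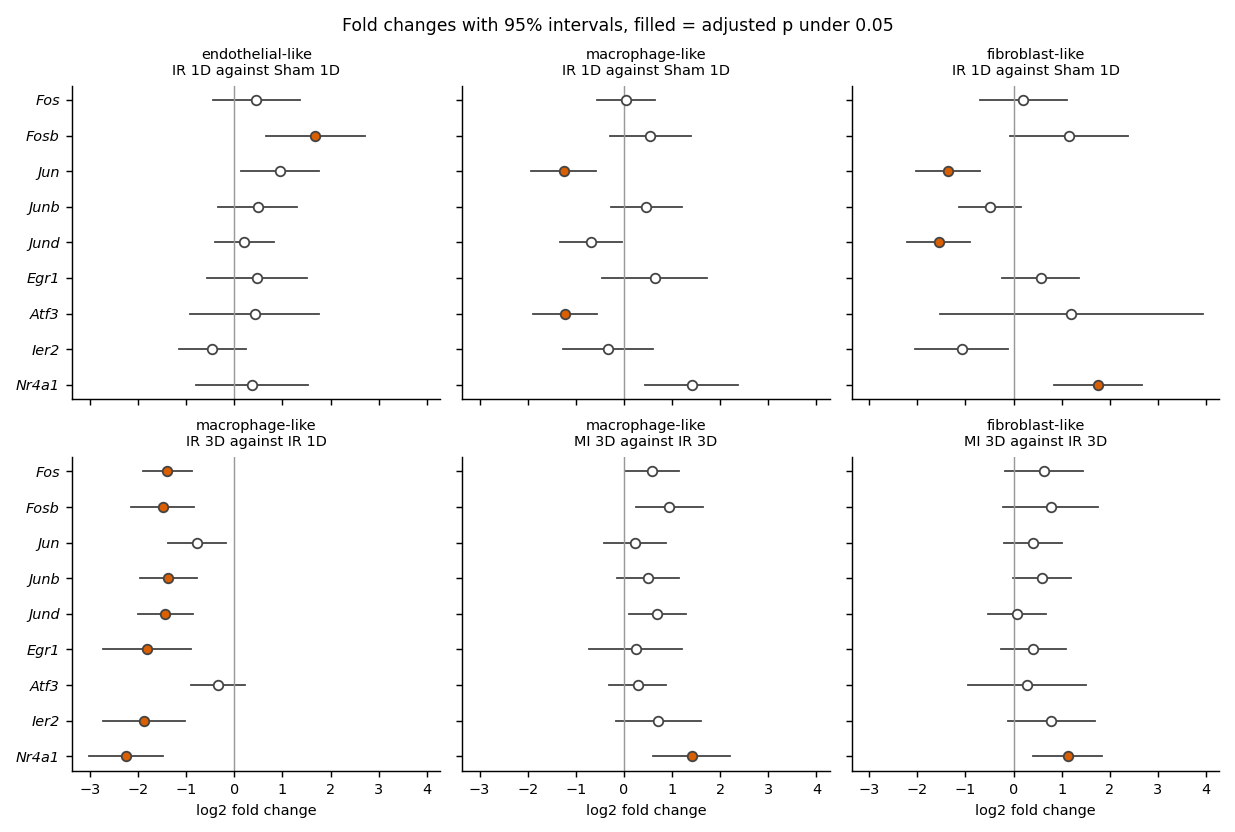
Log2 fold change of each member in 6 comparisons, with its 95% interval, on the horizontal axis. Filled points are those with an edgeR adjusted p under 0.05. In macrophage-like cells of IR 3D against IR 1D 7 members lie below 0 as filled points, while each of the other panels has between 1 and 3 filled points. The comparisons share plates of IR 1D, IR 3D and Sham 1D.

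The genes whose pattern was most like the mean of the members were found by correlation, given as a description without a test. Over the 25 class-by-group means (3750 candidate genes of at least 50 CPM), the closest were Zfp36 (Pearson's r = 0.952), which encodes an mRNA decay factor, Btg2 (0.940), Wsb1 (0.939), Ifitm2 (0.934) and Socs3 (0.923). Over 107 libraries, one for each class on a plate, centred on their class and group, Zfp36 (0.722) and Btg2 (0.693) again came first, followed by Socs3 (0.584), Nfkbiz (0.572) and Rhob (0.533). These points share plates and depth. Among the members, Ier2 (0.742) and Egr1 (0.739) followed the mean of the other 8 most closely over those libraries, then Junb (0.692) and Fos (0.687), whereas Jund (0.312) and Atf3 (0.305) followed it least.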

How the data were processed

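Per the file headers and labels, the authors aligned reads with BWA to the mouse genome (GRCm38, mm10) and deposited, for each plate, a table of UMI counts per gene and well; the counts are whole numbers and not normalized. The settings of the aligner are not given in the sources used here. Every column was mapped to its plate. Wells of at least 1000 UMIs were clustered with scanpy 1.11.5 and leidenalg 0.10.2 (resolution 1, 2000 variable genes, 30 principal components, 15 neighbours), leaving 46 immediate early genes out, and a cluster was named where at least 3 markers of a class led it by 2-fold. No doublet caller was run. Counts were summed per plate and class (at least 5 cells) and tested with edgeR 4.0.16 (R 4.3.3; TMM scaling, its filter on low counts, quasi-likelihood test, Benjamini-Hochberg adjustment over all genes tested, threshold 0.05), with all groups of a class in one fit. Tests between classes kept the plate as a block. The genes named beside the members are, for each list, up to 3 called genes with the largest fold changes in each direction, and the 10 most alike by correlation. DESeq2 1.42.0, other scalings, filters and depths were tried as alternatives. Intervals and shares cover counting error only. The members and gene lists were chosen with earlier results of these data known. On simulated counts for macrophage-like cells of IR 3D against IR 1D (5097 genes), the fit recovered 55% of 100 genes changed 2-fold and 96% of 100 changed 4-fold, and for endothelial-like cells of IR 1D against Sham 1D (3461 genes) 17% and 76%. Same-numbered plates of different groups did not deviate together (correlations from -0.181 to 0.145), so the numbers only name plates.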

Additional observations from a re-analysis of the deposited data

Results flagged for a closer look

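Within groups of 4 to 10 plates, the highest or lowest plate stood apart by Dixon's test in 22 of 135 groups, where chance alone gives about 1 in 20. In macrophage-like cells IR 3D replicate 3 stood high for Fos (2887 CPM), Jun (1053), Egr1 (1087), Ier2 (611) and Nr4a1 (747), and IR 1D replicate 6 for Junb (3092), Egr1 (2033) and Ier2 (1288). In endothelial-like cells MI 3D replicate 5 stood high for Fos (2547 CPM), Egr1 (1124), Ier2 (499.4) and Nr4a1 (425), and Sham 14D replicate 5 for Fos (1645) and Jund (585). Each of these plates therefore carried several members at once.

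Single genes stood apart on other plates, or in another class of the plates named above. Atf3 was 454 CPM on IR 1D replicate 1 in endothelial-like cells and 138 CPM on MI 3D replicate 4 in fibroblast-like cells. In neutrophil-like cells Jun was 1631 CPM on IR 1D replicate 2 and Fosb 438 CPM on MI 3D replicate 3. Jund was 414 CPM on MI 3D replicate 5 in macrophage-like cells, and Ier2, at 135 CPM, was low on Sham 1D replicate 1 in endothelial-like cells. Fosb was 36.0 CPM on Sham 1D replicate 4 and 69.4 CPM on Sham 14D replicate 5 in cardiomyocyte-like cells.

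The effect of IR at day 1 differed between fibroblast-like and endothelial-like cells by -2.39 on the log2 scale for Jun and -1.83 for Jund in the test of that difference. The fibroblast-like cells lay mostly in different clusters at Sham 1D and IR 1D. The pooled levels of both genes within cluster 10, which the groups share, are reported above and were not tested.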

How the results depend on the processing

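The fall of 7 members in macrophage-like cells from IR 1D to IR 3D was the most stable group result: 7 to 8 members were called without any one plate, and 3 after thinning cells to 1000 UMIs, where 8 were tested. The differences between classes also held without any one plate for endothelial-like against cardiomyocyte-like (7 called), neutrophil-like against macrophage-like (8) and macrophage-like against endothelial-like cells (4 to 5), while fibroblast-like against endothelial-like cells gave 1 to 6. Thinning left few members to test there, with 0, 3, 2 and 0 called in the same order of comparisons (fewer genes tested), wells of at least 500 UMIs gave 1 for fibroblast-like against endothelial-like cells, and neutrophil-like against macrophage-like cells without the filter on low counts gave 5, with Fos at -0.051 and Jun at -0.062 reversed. The other group results with a call lost some or all of it under some settings, and the cause was not tested. Without one plate the count was 0 to 1 for endothelial-like IR 1D, 0 to 2 for endothelial-like MI 3D, 0 to 1 for cardiomyocyte-like IR 3D, 0 to 3 for macrophage-like MI 3D, 0 to 2 for macrophage-like IR 1D, 0 to 1 for fibroblast-like MI 3D, 2 to 3 for fibroblast-like IR 1D and 0 to 2 for the difference of effects between fibroblast-like and endothelial-like cells.

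For endothelial-like IR 1D, wells of at least 2000 UMIs and thinning gave 0. Endothelial-like MI 3D gave 1 without the filter and 2 with at least 10 cells per plate. Cardiomyocyte-like IR 3D gave 0 with DESeq2, wells of at least 2000 or 500 UMIs and thinning. Macrophage-like MI 3D against IR 3D gave 0 with DESeq2, 3 without the filter, 0 with at least 10 cells and 4 with wells of at least 2000 UMIs, and IR 1D against Sham 1D in that class gave 1 without the filter, 1 with wells of at least 500 UMIs and 0 after thinning. Fibroblast-like MI 3D gave 0 with DESeq2, RLE scaling, wells of at least 2000 or 500 UMIs and thinning, and fibroblast-like IR 1D gave 1 with at least 10 cells and 1 with wells of at least 500 UMIs. The difference of effects gave 1 without the filter and 0 with at least 10 cells, wells of at least 2000 or 500 UMIs and thinning. With the plate number as a replicate block, the count was 0 for endothelial-like IR 1D, cardiomyocyte-like IR 3D, macrophage-like MI 3D and macrophage-like IR 1D, and no other count moved by over 1.5 times, but the numbers did not pair the plates. The block could not be fitted for the fibroblast-like comparisons, nor at least 10 cells per plate for macrophage-like IR 1D and its difference of effects. Over single members, 477 alternative values kept their side of the threshold, 52 lost it, 15 gained it and 2 reversed.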

Other observations

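Wells of at least 100 and under 500 UMIs, which hold fragments or free RNA as well as shallow cells, carried the members at a pooled 4165 CPM at IR 1D, 4393 at MI 3D, 1613 at IR 3D, 858 at Sham 1D, 751 at Sham 14D and 723 at IR 14D. The cells of the same groups carried 6312, 4619, 2287, 2301, 2074 and 1594 CPM. In the shallow wells of MI 3D Jun (1208 CPM) exceeded Fos (883 CPM).

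The unnamed clusters differed in their member sums, with 819 CPM in cluster 8, 3959 in cluster 7 and 2928 in cluster 14. Among endothelial-like cells cluster 15 held 655 CPM, against 4361 in cluster 5 and 3753 in cluster 11. The one macrophage-like plate of IR 14D held 14973 CPM, above the mean of any other group of that class, and it rests on a single plate.

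Across the IR 1D plates, the Fos level of one class did not follow that of another. Pearson's r was -0.03 between endothelial-like and macrophage-like cells (8 plates, exact permutation p = 0.949), -0.23 between endothelial-like and neutrophil-like cells (8 plates, exact permutation p = 0.606) and 0.03 between macrophage-like and neutrophil-like cells (9 plates, exact permutation p = 0.929), with all 3 at 0.949 after Benjamini-Hochberg adjustment. Spearman's rho was -0.095, -0.571 and -0.033 (exact permutation p = 0.840, 0.151 and 0.948; adjusted 0.948, 0.453 and 0.948), and r without the 2 plates farthest from the median was 0.07, 0.43 and 0.23. With so few plates these values do not show that the classes vary independently.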
